A study of Mus musculus with 4 samples.

Results

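The glucocorticoid receptor gene Nr3c1 and 6 genes known as targets of the receptor, namely Fkbp5, Tsc22d3, Ddit4, Per1, Sgk1 and Klf9, were described in single cells from mouse brain. These 7 genes, of 28692 in the gene table, were taken by symbol from a list that was chosen on measured values, since levels in these same libraries were already known when it was drawn up. Their levels are therefore given as a description without a test.

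The data came from 4 male C57BL/6J mice aged 90 days, with 1 library per mouse. All mice belonged to 1 group, which had received phosphate-buffered saline (PBS) into the tail vein 24 hours before sacrifice per the labels (the study's methods give a shorter interval). Cortex and hippocampus were homogenised in a cold Dounce, which breaks up tissue mechanically and needs no enzyme, and live cells positive for CD45 and CD11b were sorted, a gate that admits microglia and other myeloid cells. The study's methods state that the sorter clogged during the last animal of this dataset, whose cells spent additional time at room temperature, and its text calls that animal Sample 4. The labels do not tie it to a library, and their title numbers of the 4 libraries do not include 4. There was no untreated, steroid-treated or receptor-deficient group, so no comparison between conditions was possible, and the question was how the genes varied between 4 mice of 1 group.

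Corticosterone, the main glucocorticoid of mice, is released from the adrenal gland in a daily rhythm and under stress. It enters cells and binds the receptor, which is held in the cytoplasm by the heat shock protein 90 chaperone complex, then moves to the nucleus and binds glucocorticoid response elements near its targets. Microglia express the receptor, through which glucocorticoids are known to restrain inflammatory gene expression.

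The members have distinct roles downstream of the receptor. Fkbp5 encodes an immunophilin that binds the receptor complex and lowers its affinity for hormone, a negative feedback loop. Tsc22d3 encodes GILZ, an anti-inflammatory leucine zipper protein. Ddit4 encodes REDD1, an inhibitor of mTORC1 that is also raised by hypoxia and other stresses. Sgk1 encodes a serum- and glucocorticoid-regulated kinase, Per1 a repressor of the circadian clock, and Klf9 a Kruppel-like transcription factor.

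Promoter sequences are shown because a receptor binding motif lies in 1 of them. RefSeq windows on GRCm38.p6, each of 300 bases around an annotated start site, were matched by symbol for 6 of the 7 members and gave 14 windows, of which 6 belonged to Sgk1. The palindromic glucocorticoid response element, spelled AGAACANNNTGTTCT and identical on both strands, was searched for in every window. It was found in 1 of the 14 member windows, that of an Sgk1 start site, and in 3 of 32851 windows of all genes (0.00913%). Looser forms were common. The core ACANNNTGT was in 2 member windows, of Sgk1, and in 6.85% of all windows. The half-site AGAACA, on either strand, was in 4 member windows, of Sgk1 and Tsc22d3, and in 19.0% of all windows. The E-box CACGTG, a palindrome through which clock and other factors bind, was found in 3 member windows, 1 each of Sgk1, Fkbp5 and Per1, and in 7.15% of all windows. The cyclic AMP response element TGACGTCA was in 0 of the 14 member windows and in 1.79% of all windows. The 250 bases before the start site are printed 5′ to 3′ on the strand of the gene for the 3 windows with an E-box. Capitals mark the full response element and the E-boxes. They lie at chr10:21993640-21993889 (plus strand) for Sgk1, chr17:28486150-28486399 (minus strand) for Fkbp5 and chr11:69098699-69098948 (plus strand) for Per1.
Sgk1: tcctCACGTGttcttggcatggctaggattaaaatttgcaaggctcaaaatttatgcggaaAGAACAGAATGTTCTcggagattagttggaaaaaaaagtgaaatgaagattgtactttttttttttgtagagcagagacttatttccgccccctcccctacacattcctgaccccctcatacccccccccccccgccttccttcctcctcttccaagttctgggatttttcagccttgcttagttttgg
Fkbp5: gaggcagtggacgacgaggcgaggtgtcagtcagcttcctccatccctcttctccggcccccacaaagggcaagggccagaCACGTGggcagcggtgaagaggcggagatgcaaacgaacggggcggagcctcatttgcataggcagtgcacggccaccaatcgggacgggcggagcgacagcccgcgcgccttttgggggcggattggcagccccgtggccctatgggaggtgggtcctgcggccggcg
Per1: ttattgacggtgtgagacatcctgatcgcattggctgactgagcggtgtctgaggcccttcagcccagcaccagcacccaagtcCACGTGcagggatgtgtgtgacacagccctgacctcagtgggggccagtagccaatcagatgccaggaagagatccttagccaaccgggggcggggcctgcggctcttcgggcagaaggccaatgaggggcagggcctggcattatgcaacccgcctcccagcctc
In the Sgk1 sequence the response element starts 189 bases and the E-box 246 bases before the start site, and the E-box starts 169 bases before it in Fkbp5 and 166 bases in Per1. The capitalised motifs do not overlap one another. Such a match describes letters only, and binding was not measured. The libraries were read from the 3′ end of transcripts and do not show which of the start sites was in use.

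The libraries held 2619 to 3703 barcodes each, and 13002 cells in all had 400 genes or more and a mitochondrial share of no more than 10%, between 2576 and 3692 per library. Unique molecular identifiers (UMIs) are counts of single captured transcripts, and 5841671 to 11267195 of them remained per library, with a median of 1905 to 2936 per cell. Any pair of libraries shared 6 to 21 barcodes. Levels are UMIs summed over the cells of a library per 1000000 UMIs of that library (CPM), with exact 95% Poisson intervals that cover counting error only. Of the 7656 genes with a mean of at least 10 CPM, 6 were members. Klf9, with 93 UMIs in all, fell short.

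The receptor gene was at nearly the same level in every mouse. Nr3c1 (ENSMUSG00000024431, chromosome 18, 39410545 to 39519421, minus strand, protein coding) was at 129, 132, 128 and 122 CPM in replicates 1 to 4, a mean of 128 ± 3.90 CPM (SD, n = 4). Replicate 4 was lowest, but the ratio of the highest to the lowest library was 1.08 with a 95% interval of 0.995 to 1.17, which includes 1. On the log2 scale with 1 CPM added its SD over libraries was 0.04, and only 7.30% of the genes tested had a smaller one, against a median SD of 0.11 over all of them.

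Its targets were not. Fkbp5 (ENSMUSG00000024222, chromosome 17, 28399094 to 28517527, minus strand) was at 70.2, 58.1, 101 and 154 CPM, a mean of 95.7 ± 42.8 CPM (SD, n = 4). The 4 libraries were all apart beyond counting error, and replicate 4 was 2.65-fold above replicate 2 (95% interval 2.41 to 2.91). The gene's span holds 4 other annotated transcripts, none of which was in the gene table.

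Tsc22d3 (ENSMUSG00000031431, chromosome X, 140539528 to 140600659, minus strand) was at 134, 96.2, 147 and 218 CPM, a mean of 149 ± 51.0 CPM (SD, n = 4). Replicate 4 was 2.27-fold above replicate 2 (95% interval 2.10 to 2.44). Replicates 3 and 1 were neighbours that did not differ beyond counting error (ratio 1.09, 95% interval 0.997 to 1.20).

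Ddit4 (ENSMUSG00000020108, chromosome 10, 59949669 to 59951834, minus strand) varied most among the members that passed the filter, at 157, 56.7, 169 and 285 CPM, a mean of 167 ± 93.4 CPM (SD, n = 4). Replicate 4 was 5.02-fold above replicate 2 (95% interval 4.60 to 5.49). Replicate 2 was also 2.77-fold below its nearest neighbour, replicate 1 (95% interval of the ratio 2.51 to 3.06), while replicates 3 and 1 lay within counting error of each other (ratio 1.07, 95% interval 0.985 to 1.17).

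Sgk1 (ENSMUSG00000019970, chromosome 10, 21882184 to 21999903, plus strand) was at 304, 255, 350.2 and 426 CPM, a mean of 334 ± 72.8 CPM (SD, n = 4). All 4 libraries differed from their neighbours beyond counting error, in steps of 1.15-fold to 1.22-fold, and replicate 4 was 1.67-fold above replicate 2 (95% interval 1.59 to 1.76).

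Per1 (ENSMUSG00000020893, chromosome 11, 69095217 to 69109960, plus strand) had few UMIs, 60, 96, 82 and 152, and was at 8.50, 8.52, 14.0 and 16.9 CPM, a mean of 11.99 ± 4.18 CPM (SD, n = 4). Replicates 3 and 4 were above replicates 1 and 2, and within each of these pairs the libraries did not differ beyond counting error. Klf9 (ENSMUSG00000033863, chromosome 19, 23141226 to 23168134, plus strand) had 19, 39, 8 and 27 UMIs, at 2.69, 3.46, 1.37 and 2.9997 CPM, a mean of 2.63 ± 0.898 CPM (SD, n = 4). No 2 neighbouring libraries differed beyond counting error for Klf9, whose highest library was replicate 2 and lowest replicate 3 (ratio 2.53, 95% interval 1.16 to 6.26).

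**Figure D1:**
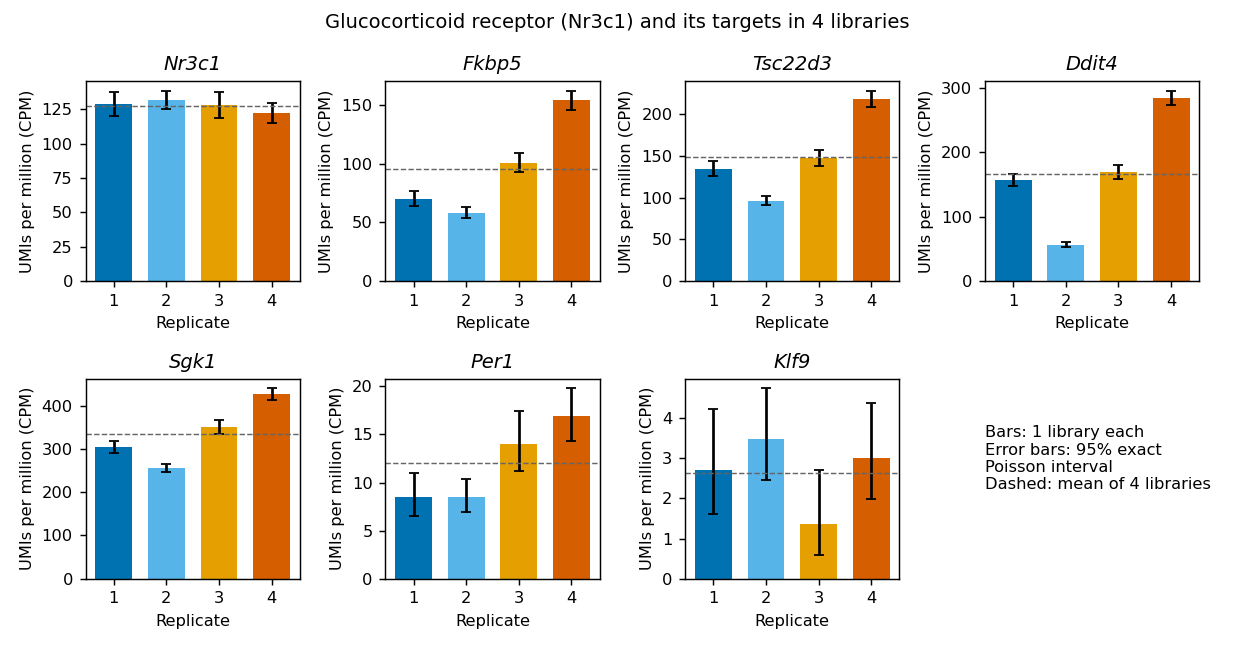
Level of each member in CPM (vertical axis from 0, a scale of its own in each panel) in replicates 1 to 4, with 1 bar per library, exact 95% Poisson intervals as error bars and the mean of the 4 libraries as a dashed line. Nr3c1 is level at 122 to 132 CPM, while Fkbp5, Tsc22d3, Ddit4 and Sgk1 are highest in replicate 4 and lowest in replicate 2.

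Most of the targets shared an order of the libraries. Fkbp5, Tsc22d3, Ddit4 and Sgk1, 4 of the 6 targets, stood in the order replicate 4, 3, 1, 2 from the highest to the lowest, as did 7.43% of all genes tested. Per1 stood in the order 4, 3, 2, 1 and Klf9 in the order 2, 4, 1, 3. Replicate 4 was highest for 5 of the 7 members, against 31.8% of all genes tested, and replicate 4 was lowest for Nr3c1, against 23.2%. The order was not a matter of replicate 4 alone. Among replicates 1 to 3 the same 4 targets stood in the order 3, 1, 2, as did 21.1% of all genes tested. Since the genes were listed with these levels known, none of these shares is evidence that the list stands apart.

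The spread of the 5 targets with a mean of at least 10 CPM was wide for this dataset. The SD over libraries on the log2 scale was 0.61 for Fkbp5, 0.48 for Tsc22d3, 0.96 for Ddit4, 0.47 for Per1 and 0.31 for Sgk1. Between 97.2% (Sgk1) and 99.8% (Ddit4) of the genes tested had a smaller SD. The genes were listed with these levels known, so these ranks, like that of Nr3c1, are a description only. By Dixon's range test (two-sided, 95%, on the log2 scale) 354 of the 7656 genes, 4.62%, had 1 library apart from the other 3. None of the 6 members tested was among them, which beside so small a share is no result about the members. With 4 libraries, a gene that is not called may still be split into 3 and 1. The largest ratio of gap to range among those 6 members was 0.630, for Ddit4, whose extreme library was the low replicate 2.

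Summed over the 6 targets, the level was 677, 478, 782 and 1103 CPM in replicates 1 to 4, a mean of 760.2 ± 261 CPM (SD, n = 4). The order of the sums was again 4, 3, 1, 2. No measure of depth or quality followed that order. The median UMI count per cell was highest in replicate 2 (2936) and lowest in replicate 1 (1905), and the median mitochondrial share, between 1.12% and 1.38%, was lowest in replicate 3.

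Genes around the receptor were read from lists written from general knowledge with earlier results of these data known. Counts over these lists are therefore a description. The list of other receptor targets held 23 genes found in the table, of which 12 had a mean of at least 10 CPM. Of these, 8 were highest in replicate 4, 6 stood in the order 4, 3, 1, 2 and 0 were lowest in replicate 4. The shares of all genes tested were 31.8%, 7.43% and 23.2%. Dusp1 and Zfp36 also belong to the list of immediate early genes below. The summed level of all 23 listed genes was 2215, 1926, 2312 and 2741 CPM. Dusp1, a phosphatase that switches off MAP kinases and is also an immediate early gene, was at 5.10, 4.79, 6.50 and 38.8 CPM, so that 1 library alone stood high. Zfp36, whose product destabilises cytokine mRNAs, was likewise high in replicate 4 alone, at 81.1, 79.9, 68.8 and 180.1 CPM. Errfi1, a feedback inhibitor of the EGF receptor, stood in the order 4, 3, 1, 2, at 19.3, 17.9, 25.5 and 29.2 CPM. Its intervals overlapped between replicates 1 and 2 and between replicates 3 and 4. Cdkn1a, the cell cycle inhibitor p21, went another way, at 26.4 CPM in replicate 1 and 12.8 to 16.2 CPM in the others. The other 11 listed targets were below 10 CPM, and Pdk4 had 0 UMIs in all libraries, for which the upper limits of the intervals were 0.327 to 0.631 CPM.

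The chaperones that hold the receptor were mostly low in replicates 3 and 4. All 13 listed genes passed the filter. Of these, 8 were lowest in replicate 4 and 2 were highest there, against 23.2% and 31.8% of all genes tested. For 9 of them replicates 3 and 4 were both below replicates 1 and 2, as for 15.6% of all genes tested. The summed level was 4833, 4908, 3640 and 3395 CPM. Hsp90ab1, the constitutive form of HSP90, was at 1092, 1064, 703 and 680.3 CPM. Hspa8, the constitutive HSP70, was at 2200.3, 2299.9, 1635 and 1502 CPM, and Hsp90aa1, the inducible HSP90, at 294, 265, 186 and 191 CPM. Stip1, which links HSP70 to HSP90, was at 71.7, 68.4, 49.5 and 42.0 CPM. In the summed levels replicates 3 and 4 were thus both below replicates 1 and 2 for the chaperones. For the targets they were both above, but not as a pair, at 677, 478, 782 and 1103 CPM in replicates 1 to 4. Replicates 3 and 1 did not differ beyond counting error for Tsc22d3 and Ddit4.

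Coregulators of the receptor had a median SD over libraries of 0.11 on the log2 scale. Of 9 tested, 2 were highest and 4 lowest in replicate 4, against 31.8% and 23.2% of all genes tested. Ncoa3, a coactivator, was at 47.5, 42.7, 50.8 and 68.4 CPM. The corepressor Ncor1 was at 173, 177, 183 and 145 CPM. Nrip1, another corepressor, was low in replicate 2 alone, at 337, 280.02, 333 and 333 CPM. Of 4 genes listed for corticosterone metabolism and the mineralocorticoid receptor, none reached a mean of 10 CPM. The enzymes Hsd11b1 and Hsd11b2, which activate and inactivate the hormone, had 3 UMIs each over all libraries. H6pd, which supplies the cofactor of Hsd11b1, was at 6.38, 7.37, 7.19 and 9.78 CPM, and the receptor gene Nr3c2 was at 3.26, 2.22, 1.71 and 2.67 CPM.

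Per1 belongs to the circadian clock as well, and the other clock genes tested did not share its order. Of 17 other clock genes listed, only 6 had a mean of at least 10 CPM. The summed level of all 17 was 283, 264, 282 and 301 CPM. Of the 6 tested, 1 was highest and 4 were lowest in replicate 4, against 31.8% and 23.2% of all genes tested. Dbp, an output gene of the clock, was at 17.3, 18.1, 13.9 and 10.999 CPM, and Per3 at 26.9, 27.7, 32.4 and 24.1 CPM. Bhlhe41, a repressor of the clock, was the gene highest in replicate 4 and stood in the order 4, 3, 1, 2, at 94.5, 78.0, 95.9 and 131 CPM. Nfil3 was at 12.2, 10.5, 8.05 and 11.999 CPM.

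Ddit4 and Sgk1 also answer to other stresses, so lists for those were read beside them. All 4 tested genes of the integrated stress response were highest in replicate 4, against 31.8% of all genes tested. Ppp1r15a, the stress-induced phosphatase subunit GADD34, was at 47.0 CPM there against 13.9 to 18.8 CPM in the other libraries. Its regulator Atf4 was at 74.8, 84.8, 83.5 and 85.5 CPM, Ddit3 at 34.3, 38.1, 39.5 and 46.1 CPM, and Atf3 at 11.5, 12.8, 10.8 and 13.8 CPM. For Atf4, Ddit3 and Atf3 the interval of replicate 4 overlapped that of the next highest library. Atf3 also belongs to the list of immediate early genes below. Of 5 hypoxia targets tested, 3 were highest in replicate 4, against 31.8% of all genes tested. The summed level of the hypoxia list stayed between 382 and 408 CPM. Bnip3 ranged from 30.6 to 38.0 CPM, Pfkfb3 from 20.2 to 25.6 CPM, Slc2a1 from 35.1 to 40.2 CPM and Ldha from 183 to 195 CPM.

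Of 10 listed inflammatory genes that the receptor is known to repress, 4 were tested. Among these, 3 were highest in replicate 4, against 31.8% of all genes tested, and 0 were lowest there, against 23.2%. The others had a mean below 10 CPM. Of those, Il1b and Cxcl10 were highest in replicate 1, while Tnf, Ccl2, Nfkbiz and Ptgs2 (3 UMIs in all) were highest in replicate 4. The chemokine gene Ccl3 was at 16.3, 17.5, 41.8 and 51.3 CPM, Ccl4 at 11.5, 9.59, 75.0 and 27.1 CPM, Il6 at 16.6, 17.8, 22.1 and 22.8 CPM, and Il1a at 68.3, 80.5, 72.4 and 82.5 CPM.

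**Figure D2:**
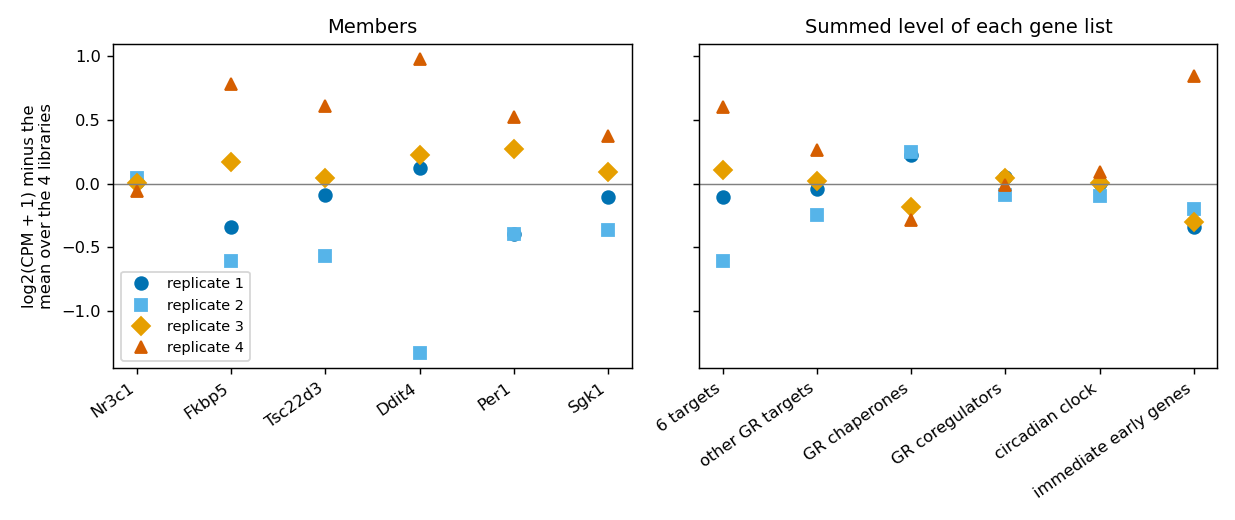
Deviation of each library from the mean of the 4 libraries on the log2(CPM + 1) scale (vertical axis), for the 6 members with a mean of at least 10 CPM (left) and for the summed level of 6 gene lists (right), with 1 symbol per library. Fkbp5, Tsc22d3, Ddit4 and Sgk1 run from replicate 4 down to replicate 2, while Per1 has replicates 1 and 2 level and lowest. The chaperones have replicates 3 and 4 below the others, and the immediate early genes have replicate 4 alone above.

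Replicate 4 was also the library with immediate early genes, which are transcribed within minutes of a stimulus. All 12 tested genes of that list were highest in replicate 4, against 31.8% of all genes tested. For 6 of them 1 library was apart, against 4.62%. Fos was at 6.52, 13.4, 10.6 and 142 CPM, and Egr1 at 3.68, 6.92, 6.16 and 105 CPM. Klf2 was at 31.2, 18.1, 30.3 and 124 CPM. For neither Fos nor Egr1 did replicates 2 and 3 differ beyond counting error (ratios 1.26, 95% interval 0.934 to 1.73, and 1.12, 95% interval 0.748 to 1.72). The study found an activation signature, which includes immediate early genes, almost only in the animal of the interrupted sort. Here Fos and Egr1 were high in replicate 4 alone, which matches that animal, although the labels do not name it. If replicate 4 was the animal of the interrupted sort, that event and the mouse cannot be told apart.

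In single cells the members were compared at equal depth, after each cell had been thinned at random to 1000 UMIs. Between 2491 and 3669 cells per library had that many. Shares are given with exact Clopper-Pearson intervals at 95%. Nr3c1 had a UMI in 11.6%, 11.6%, 12.1% and 10.9% of cells in replicates 1 to 4. All 4 intervals overlap, from 9.82% to 13.4%.

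Detection of the targets followed their levels. Ddit4 was detected in 13.5%, 5.61%, 15.3% and 23.5% of cells, Fkbp5 in 6.81%, 5.04%, 9.51% and 14.1%, and Tsc22d3 in 12.3%, 9.21%, 14.2% and 19.9%. Sgk1 was detected in 24.9%, 20.7%, 27.8% and 31.7% of cells. Per1 was detected in 0.773% to 1.78% of cells and Klf9 in 0.161% to 0.436%. For Ddit4 in replicate 4 the interval was 22.0% to 25.0%, clear of the 4.89% to 6.41% of replicate 2. Without thinning Ddit4 was detected in 23.8%, 14.6%, 28.8% and 49.05% of cells, Sgk1 in 39.7%, 46.3%, 47.4% and 59.6%, and Nr3c1 in 21.4%, 32.4%, 24.3% and 28.3%, and these shares carry the unequal depth of the libraries.

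Most positive cells had a single UMI, as they must at so low a mean count. A cell with any Fkbp5 UMI had 1.04 to 1.08 on average, one with Tsc22d3 1.08 to 1.15, one with Ddit4 1.04 to 1.22 and one with Sgk1 1.23 to 1.31. The variance over the mean of the thinned counts is 1 for Poisson counts. It was 1.002 to 1.08 for Fkbp5, 1.07 to 1.11 for Tsc22d3, 1.02 to 1.25 for Ddit4 and 1.18 to 1.22 for Sgk1. Single cells had up to 9 UMIs of Ddit4 before thinning. At this depth a lower level in every cell and a smaller share of expressing cells cannot be told apart. The gate left no cell type that is known to lack these genes, so free RNA was not measured.

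No joint variation of the members from cell to cell was seen within a library. Over the 21 pairs of members the median Pearson correlation of log-transformed thinned counts was -0.00466, -0.00254, -0.00320 and -0.00205 in replicates 1 to 4, a mean of -0.00311 ± 0.00113 (SD, n = 4). Single pairs ranged from -0.0345, for Tsc22d3 with Sgk1, to 0.0401, for Ddit4 with Sgk1, both in replicate 4. These correlations are over the cells of 1 library, which share its depth and are not replicates, and in counts this sparse values so close to 0 are no finding.

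Counts of cells with several targets gave the same picture. In replicates 1 to 4, 10.04%, 4.93%, 14.1% and 22.3% of cells had a UMI of 2 or more targets. Had the 6 targets been detected independently of one another, with the shares given above, 10.05%, 5.23%, 13.5% and 22.4% would have had them. Ddit4 and Sgk1 were detected together in 504 cells over all libraries, against 496 under independence, with 250 against 229.7 in replicate 4 and 33 against 42.6 in replicate 2. Tsc22d3 and Sgk1, the pair with the largest gap, were detected together in 441 cells against 470.3, and Fkbp5 and Tsc22d3 in 160 cells against 167. Nr3c1 and Sgk1 were detected together in 379 cells against 379.5, so receptor and Sgk1 UMIs met in the same cells about as often as independence gives.

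**Figure D3:**
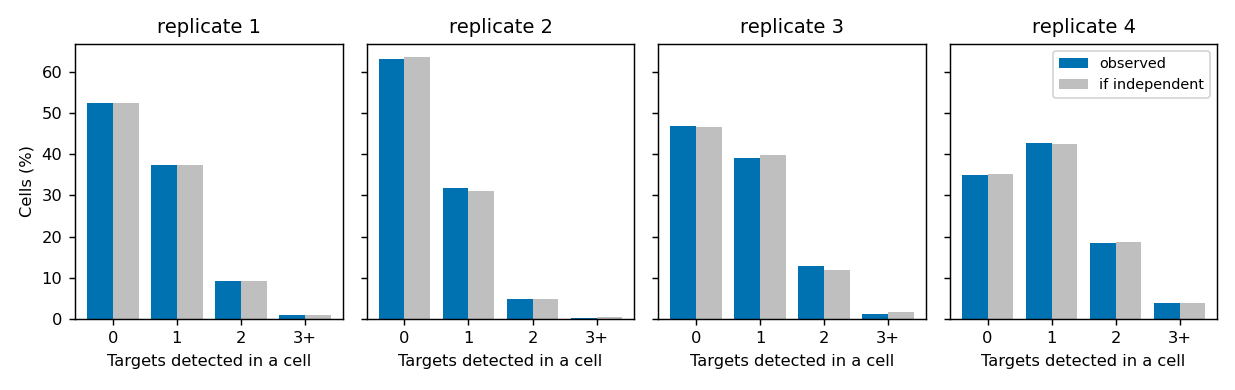
Share of cells (%, vertical axis from 0) in which 0, 1, 2 or at least 3 of the 6 targets were detected after thinning to 1000 UMIs per cell, observed (blue) and as computed from the detection shares if targets were independent (grey), in 1 panel per library. Observed and computed bars nearly coincide in every library, with 22.3% and 22.4% of cells at 2 or more targets in replicate 4.

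Genes most like each member were sought by the mean of the 4 within-library correlations, over 2742 genes detected in at least 5% of the thinned cells of every library. None came close. Among the 3 genes most like Sgk1 were Selplg (mean correlation 0.0398) and Olfml3 (0.0379), and among those most like Fkbp5 were Csnk1a1 (0.0274) and Surf1 (0.0270). The gene most like Ddit4 was Renbp (0.0434), and for Nr3c1 it was Dok3 (0.0388), for Tsc22d3 Tor3a (0.0326), for Per1 Arhgdia (0.0319) and for Klf9 Gcnt1 (0.0396). At these values no likeness between genes can be read.

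Cells with a UMI of Fos or Egr1 numbered 29, 65, 39 and 542 after thinning, or 0.830%, 1.77%, 1.57% and 17.6% of cells (1.54%, 4.96%, 3.14% and 34.6% without thinning). The targets together were higher in these cells than in the other cells of their library in 2 libraries and lower in the other 2. The ratio of target UMIs per cell, Fos or Egr1 positive to negative, was 1.14, 0.798, 1.05 and 0.972, a mean of 0.989 ± 0.145 (SD, n = 4). The side of 1 was not stable. Without thinning the ratio was above 1 in 4 of 4 libraries, at 1.13, 1.12, 1.10 and 1.14, where the median depth of positive against negative cells was 1885 against 1905, 3095 against 2927, 2422 against 2188 and 2980 against 2707 UMIs. Thinned to 2000 UMIs it was 0.822, 0.904, 1.01 and 1.05. In replicate 4, which alone has many positive cells, the targets had 585 UMIs in the 542 positive cells and 2820 UMIs in the 2540 negative cells.

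For single members the share of negative cells with a UMI lay inside the 95% interval of the positive cells in 27 of the 28 pairs of gene and library, a count that says little in replicates 1 to 3, where the few positive cells give wide intervals. The exception was Tsc22d3 in replicate 1, detected in 8 of 29 positive cells (27.6%, 95% interval 12.7% to 47.2%) against 12.1% of negative cells. In replicate 4 Fkbp5 was detected in 12.7% of positive and 14.4% of negative cells, Ddit4 in 22.3% and 23.7%, Sgk1 in 30.3% and 32.0%, Tsc22d3 in 20.8% and 19.7%, and Nr3c1 in 9.59% and 11.2%.

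**Figure D4:**
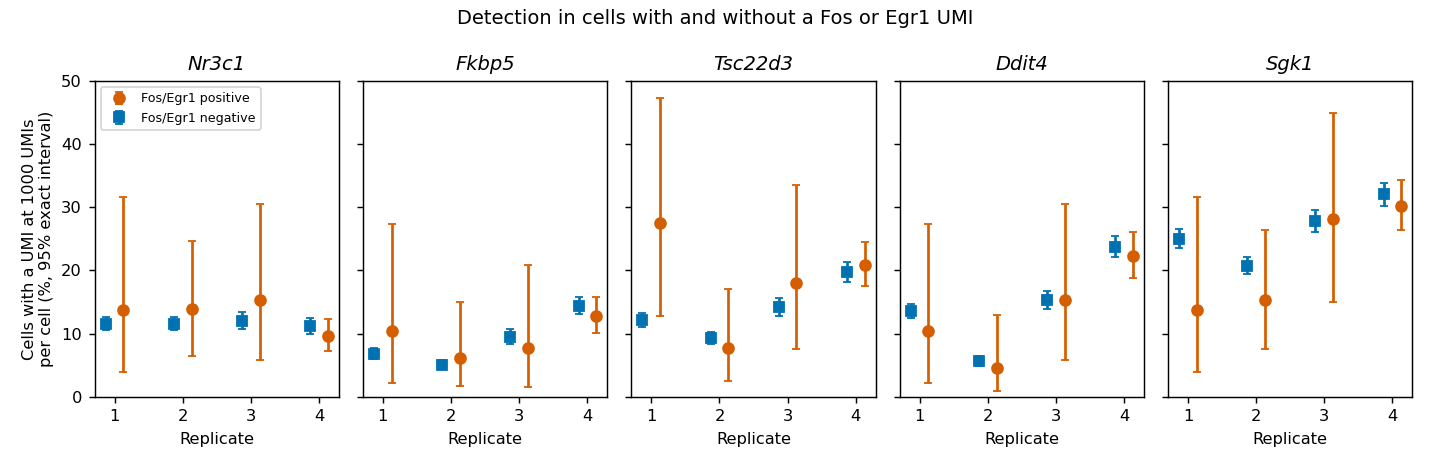
Share of cells with a UMI (%, vertical axis) of Nr3c1, Fkbp5, Tsc22d3, Ddit4 and Sgk1 at 1000 UMIs per cell in replicates 1 to 4, for cells with a Fos or Egr1 UMI (orange circles) and without (blue squares), with exact 95% intervals. For the targets shown, though not for Nr3c1, the negative cells alone repeat the order of the libraries. The positive cells of replicate 4 lie beside the negative ones.

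The order of the libraries was also present without these cells. Thinning hides part of the Fos and Egr1 UMIs, so cells with neither were called before thinning, and 3521, 3509, 2495 and 2065 cells remained. In CPM over those cells, Fkbp5 was at 70.1, 58.4, 99.9 and 154, Tsc22d3 at 133, 95.3, 146 and 211, Ddit4 at 158, 56.6, 169.8 and 292, and Sgk1 at 305, 256, 353 and 427. These 4 targets kept the order 4, 3, 1, 2, and 5 members were highest in replicate 4, as in all cells. A cell without a UMI of either gene may still express it.

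The cells were grouped into 6 clusters without use of the members or of the listed genes. Clusters 0, 1, 2 and 4 were microglia-like, with 9 or 10 of the 10 microglial markers each detected in at least 10% of their cells, and cluster 3 was microglia-like with interferon-responsive genes leading (252 cells). Cluster 5 (108 cells) was left unnamed. It was led by Cd74, Apoe and MHC class II genes. All 10 microglial markers were detected in at least 10% of its cells as well, beside 8 border macrophage and 3 monocyte markers. Ddit4, although not used for clustering, was among the 10 leading genes of cluster 0 (5647 cells). Levels by cluster are a description, since the clusters were made from the same cells.

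The summed level of the targets stood in the order 4, 3, 1, 2 in each of clusters 0 to 4, and in the order 4, 1, 3, 2 in cluster 5. It was 740.1, 527, 822 and 1210.2 CPM in cluster 0 and 621, 461, 743 and 1013 CPM in cluster 1 (5087 cells). In cluster 2, which held 27.8% of the cells of replicate 4 but 5.73% to 14.2% of the others, it was 739, 458, 747 and 1082 CPM. The shares of the clusters therefore moved with the library, and the order of the target sums was as in all cells inside each microglia-like cluster. Single targets did not all keep it. In cluster 0 Fkbp5, Tsc22d3, Ddit4 and Sgk1 did. Ddit4 was at 144, 54.0, 142 and 230 CPM in cluster 1 and at 176, 56.7, 153 and 296 CPM in cluster 2. Fkbp5 was at 84.3, 55.4, 83.4 and 155 CPM in cluster 2. Cluster 4 had few target UMIs, such as 7 of Sgk1 and 1 of Ddit4 in replicate 2.

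**Figure D5:**
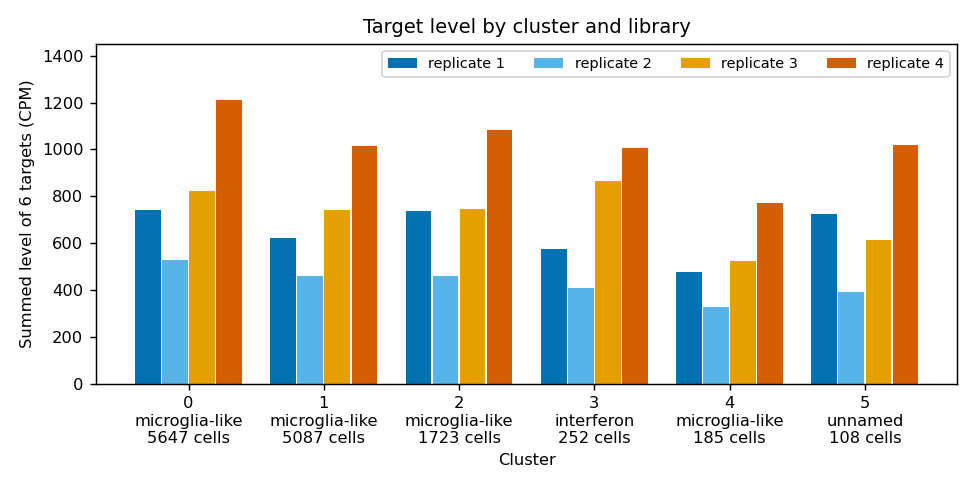
Summed level of the 6 targets in CPM (vertical axis from 0) in each of 6 clusters, with 1 bar per library. In all clusters replicate 4 is highest and replicate 2 lowest, with 1210.2 and 527 CPM in cluster 0.

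Single members differed between the clusters. Averaged over libraries, Ddit4 was at 189 CPM in cluster 0, 142 CPM in cluster 1 and 170.3 CPM in cluster 2, and Sgk1 at 372, 310.4 and 331 CPM. In all microglia-like cells together Sgk1 was at 337 ± 75.1 CPM and in the unnamed cluster at 124 ± 54.6 CPM (SD, n = 4 each), lower in 4 of 4 libraries. Tsc22d3 was the reverse, at 147 ± 49.99 CPM in microglia-like cells and 275 ± 124 CPM in the unnamed cluster, higher there in 4 of 4 libraries. The unnamed cluster held 25, 19, 18 and 46 cells per library, so its Tsc22d3 level rests on 27, 19, 20 and 68 UMIs and its Sgk1 level on 4, 21, 18 and 19. Nr3c1 was at 128 ± 4.01 CPM in microglia-like cells and 99.5 ± 44.1 CPM in the unnamed cluster, a difference within the spread of the latter. The unnamed cluster made up 0.515% to 1.46% of a library, and leaving it out changed neither the number of targets in the order 4, 3, 1, 2 nor the number of members highest in replicate 4.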

How the data were processed

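Single-cell RNA-seq counts of 4 libraries (1 group) were analysed. The authors made 10x Genomics 3′ libraries (second kit version) and counted UMIs with Cell Ranger 2.2.0 against mm10 (GRCm38) with a filtered Ensembl annotation. The deposited counts were raw, per gene and called cell. Replicates were numbered 1 to 4 in accession order (title numbers 2, 3, 6 and 8).

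Cells were filtered as stated, doublets were not removed, and counts were summed per library and scaled to CPM. Dixon's range test was run on log2(CPM + 1) for genes with a mean of at least 10 CPM. Correlations and shares used cells thinned to 1000 UMIs. Clusters came from the Leiden algorithm in scanpy 1.11.5 (leidenalg 0.10.2; resolution 0.5, 2000 variable genes before listed genes were left out, 20 principal components, 15 neighbours). A name needed 3 markers. TMM factors came from edgeR 4.0.16, with R 4.3.3, Python 3.11.15 and scipy 1.17.1. The range test and correlations were tested on simulated data. Coordinates are from GENCODE on GRCm38. Of the genes written for the list of other targets, 1 was not analysed here.

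Members and lists were chosen with earlier results of these data known. Named were all members, up to 4 genes per list with the largest SD, and the 3 genes most like each member, of which the text prints 1 or 2. Some genes that this rule names are not reported here. Other listed genes (Pdk4, Hsd11b1, Hsd11b2, H6pd, Nr3c2, Il1b, Cxcl10, Tnf, Ccl2, Nfkbiz, Ptgs2) were named after their values were seen.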

Additional observations from a re-analysis of the deposited data

Results flagged for a closer look

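Of 69 values per library, 6 had 1 library apart by Dixon's range test, which flags about 1 in 20 by chance. The ratios of gap to range were 0.831 for the Egr1 level, 0.866 for Dusp1, 0.830 for Zfp36, 0.918 for the summed immediate early genes and 0.944 for the share of Fos or Egr1 positive cells, each with replicate 4 high. For Nrip1 it was 0.935, with replicate 2 low, at 280.02 CPM against 333 to 337 CPM. No level or detection share of a member was among the 6.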

How the results depend on the processing

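The order of the libraries did not depend on the scaling. With TMM factors, median-of-ratios factors or a total without mitochondrial genes each member kept its order, while under TMM factors the share of all genes in the order 4, 3, 1, 2 was 4.90% and the share highest in replicate 4 was 25.5%. Orders, and the setting without Fos or Egr1 positive cells, were examined after seeing the data. Leaving out 1 replicate gave a summed target level of 646 to 854 CPM, 5 to 6 members highest in replicate 4 and 8 to 10 other targets highest there. Genes with 1 library apart numbered 2052 without a filter on low levels and 148 at a mean of at least 50 CPM. The median correlation of member pairs was 0.0178 without thinning, -5.44e-06 in a second random draw, -0.00562 in cells with at least 1000 genes, -0.00159 in microglia-like cells and -0.00155 by Spearman's rho. The target ratio between Fos or Egr1 positive and negative cells was 0.819 in cells with at least 1000 genes, 0.839 with Fos alone, and 0.716 with at least 2 UMIs of Fos and Egr1, where replicates 1 to 3 had 3, 5 and 3 positive cells. It was 1.12 without thinning and 1.08 in a second draw. The cause was not tested. No paired analysis was possible because there was 1 group. With 4 mice, Dixon's test can only set apart a library whose gap takes up most of the range.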
